A study of Homo sapiens with 8 samples.

Results

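The SMAD genes encode the intracellular carriers of TGF-β and BMP signals. The 8 human genes SMAD1, SMAD2, SMAD3, SMAD4, SMAD5, SMAD6, SMAD7 and SMAD9 were taken by symbol from a table of 58735 genes, and each matched 1 row. They were followed through 8 RNA-seq libraries of SRA01/04, an immortalised line of human lens epithelial cells. In 4 libraries the cells carried a short hairpin RNA against SMURF1 (shSmurf1), a stable knockdown line. The other 4 came from a line with a negative control hairpin (shControl) that the labels give as wild type (WT). All 8 libraries, controls included, came from cells given recombinant human TGF-β2 (20 ng/ml, 48 h), and the response to TGF-β2 itself cannot be read from them. The labels name 1 knockdown line, no second hairpin and no rescue, and do not say whether a line is 1 clone or a pool. Effects of SMURF1 loss and other differences between the lines therefore cannot be told apart.

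Type I receptors of the TGF-β and activin branch phosphorylate SMAD2 and SMAD3, and those of the BMP branch phosphorylate SMAD1, SMAD5 and SMAD9. These receptor-regulated SMADs join the common partner SMAD4 and enter the nucleus to control transcription. SMAD6 and SMAD7 are inhibitory SMADs, made in response to the same signals, that block receptors and SMAD complexes. SMURF1 is a HECT-type ubiquitin ligase that binds proline-tyrosine (PY) motifs of SMAD proteins and reaches the receptors through SMAD7, and TGF-β2 drives lens epithelial cells towards the fibrotic state of posterior capsule opacification and anterior subcapsular cataract. Such a ligase acts on proteins, whereas the values here are RNA levels, and in bulk RNA fewer cells with a transcript and less of it per cell cannot be told apart.

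The classes can be read in the coding sequences of GENCODE release 29 on GRCh38. The lines below give the last 30 coding bases of each gene's principal transcript, 5′ to 3′, with the last 4 codons before the stop codon in capitals, because the receptors phosphorylate the serines encoded there.
SMAD2, chr18:47841827-47841856 (minus strand): ccttcagtgcgttgcTCAAGCATGTCAtaa
SMAD3, chr15:67190507-67190536 (plus strand): ccaagcatccgctgtTCCAGTGTGTCTtag
SMAD1, chr4:145557905-145557934 (plus strand): cctcataatcctattTCATCTGTATCTtaa
SMAD5, chr5:136177451-136177480 (plus strand): cctctgaaccccataTCTTCTGTTTCAtaa
SMAD9, chr13:36848676-36848705 (minus strand): ccacataaccccattTCTTCAGTGTCTtaa
SMAD4, chr18:51078438-51078467 (plus strand): ccgattgcagacccaCAACCTTTAGACtga
SMAD6, chr15:66781506-66781535 (plus strand): ctggagatcctcctcAACAACCCCAGAtag
SMAD7, chr18:48921372-48921401 (minus strand): tggctagaggtcatcTTCAACAGCCGGtag
In the 5 receptor-regulated SMADs 3 of the last 4 codons encode serine, as serine, serine, any residue, serine. SMAD4 and SMAD6 have 0 serine codons among the last 4, and SMAD7 has 1.

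The sequences that encode the PY motif (proline, proline, any residue, tyrosine), the element that WW domains of SMURF1 recognise, are given next, with the 4 motif codons in capitals and 9 bases on each side.
SMAD1, chr4:145542584-145542613 (plus strand): gatacgcccCCACCTGCTTACctgcctcct
SMAD5, chr5:136163274-136163303 (plus strand): gatacgcctCCTCCTGCCTATatgccacct
SMAD2, chr18:47865105-47868323 (minus strand): gaaacgccaCCTCCTGGATATatcagtgaa
SMAD3, chr15:67165384-67166807 (plus strand): gagaccccaCCCCCTGGCTACctgagtgaa
SMAD6, chr15:66704075-66711696 (plus strand): gaatctccgCCACCTCCCTACtctcggctg
SMAD7, chr18:48948409-48949812 (minus strand): gagtctcccCCCCCTCCTTACtccagatac
Those of SMAD1 and SMAD5 lie within 1 exon, and those of SMAD2, SMAD3, SMAD6 and SMAD7 are split by an intron, so their coordinates span it. SMAD6 holds 2 such motifs, of which the first is shown. The motif was absent from the principal coding sequences of SMAD4 and SMAD9, and from all 3 complete coding transcripts of SMAD9. Coding identity was highest between SMAD1 and SMAD5, at 77.4% of aligned bases, followed by 76.5% for SMAD5 and SMAD9, 75.8% for SMAD1 and SMAD9 and 75.6% for SMAD2 and SMAD3. SMAD6 and SMAD7 had 70.3%. SMAD5 and SMAD6 were the least alike, at 54.3%. Even so, no stretch of 50 exonic bases was shared between members, and 0% to 5.84% of such stretches recurred in other genes, most in SMAD4.

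Library totals ranged from 14688651 to 17030394 counts, and no 2 libraries of the same group agreed within sampling noise. SMURF1 RNA fell from 88.9 ± 3.17 CPM (counts-per-million of the TMM-scaled library total; mean ± SD, n = 4) to 51.1 ± 0.491 CPM (n = 4), 57.5% of control, with a log2 fold change of -0.80 ± 0.055 (SE; edgeR adjusted p = 2.86e-09), so the labels held. Of 11 lens epithelial markers 5 reached 1 CPM in all libraries (PAX6, SIX3, KRT8, KRT18 and VIM), whereas FOXE3, CRYAA and CDH1 had 10, 4 and 4 counts over all 8. The summed lens epithelial list ranged from 3348 to 3455 CPM in shControl and from 2847 to 3060 CPM in shSmurf1. Most of this sum came from VIM, KRT8 and KRT18, with means of 1917, 897 and 322 CPM over all libraries. PAX6 and SIX3 had means of 33.7 and 14.4 CPM. Fibroblast markers summed to 2242 to 2457 CPM in shControl and 1862 to 2569 CPM in shSmurf1. Retinal pigment epithelium markers summed to 24.8 to 26.1 and 19.6 to 21.99 CPM, lens fibre markers to 4.52 to 6.25 and 3.94 to 5.51 CPM, and endothelial markers to 2.33 to 3.46 and 1.18 to 3.27 CPM. Blood cell markers summed to 6.27 to 8.78 and 11.7 to 14.4 CPM, almost wholly from CD14, and keratinocyte markers to at most 0.404 CPM. The part of these differences in the SMAD values was not tested.

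One library stood apart. In shSmurf1 replicate 3 mitochondrially encoded genes took 6.34% of counts, against 5.07% to 5.22% in the other shSmurf1 libraries and 4.03% to 4.40% in shControl. Its log2 CPM, compared with the mean of the other shSmurf1 libraries, ran with the GC content of exons, from a median of 0.20 over genes under 40% GC to -0.29 over genes of 60% and more. The SMAD genes followed this course apart from SMAD4, the member with the lowest GC content, at 39.3%, whose difference was -0.02. SMAD6 (56.6% GC) had a log2 difference of -0.42 in that library, SMAD7 (57.7%) had -0.32 and SMAD3 (52.3%) -0.13. SMAD1 (45.03%), SMAD2 (40.6%), SMAD5 (39.9%) and SMAD9 (43.6%) had 0.26, 0.20, 0.15 and 0.13. Log2 fold changes of the members that moved with this library are therefore given with and without it. Removal of each library's GC trend also changed the fits without it. There SMAD2 went from 0.04 to 0.14, SMAD4 from 0.04 to 0.15, SMAD5 from -0.08 to 0.03 and SMAD7 from 0.01 to -0.13. SMAD6 went from 0.36 to 0.24, SMAD9 from -0.25 to -0.17, SMAD3 from 0.19 to 0.15 and SMAD1 from 0.02 to 0.07. GC trends thus also differed between the groups among the remaining libraries, and their cause was not tested.

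**Figure D1:**
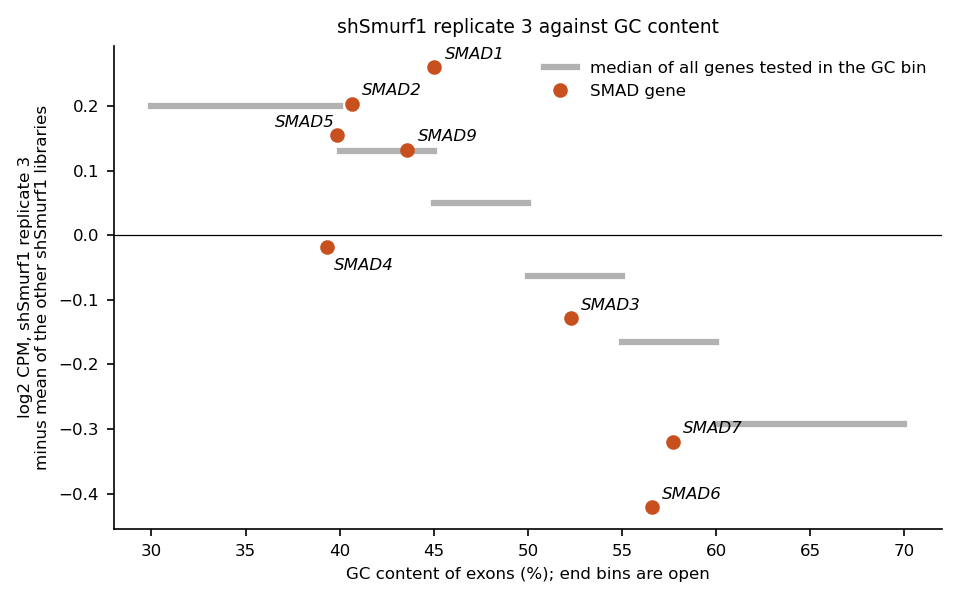
Log2 CPM of shSmurf1 replicate 3 minus the mean of the other shSmurf1 libraries (vertical axis) against the GC content of exons in percent (horizontal axis). Points are the SMAD genes and grey bars the medians of all genes tested in each GC bin; SMAD6 at -0.42 and SMAD7 at -0.32 lie lowest, and SMAD1 at 0.26 highest.

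All 8 SMAD genes were expressed and passed the filter on low counts, among 15647 genes tested. SMAD3 and SMAD6 rose in shSmurf1, SMAD9 fell, and SMAD1, SMAD2, SMAD4, SMAD5 and SMAD7 did not pass edgeR's quasi-likelihood test at an adjusted p under 0.05. Changed members thus made up 37.5% of the family, beside 22.5% of all genes tested (10.3% higher and 12.2% lower). The median log2 fold change was 0.06 over the members and 0.01 over all genes. The groups did not overlap for 1 member, SMAD3, beside 23.7% of all genes. The 3 changes were small next to a median size of 0.35 on the log2 scale among changed genes, and each call was lost in 6 of 8 fits that left out 1 library.

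**Figure D2:**
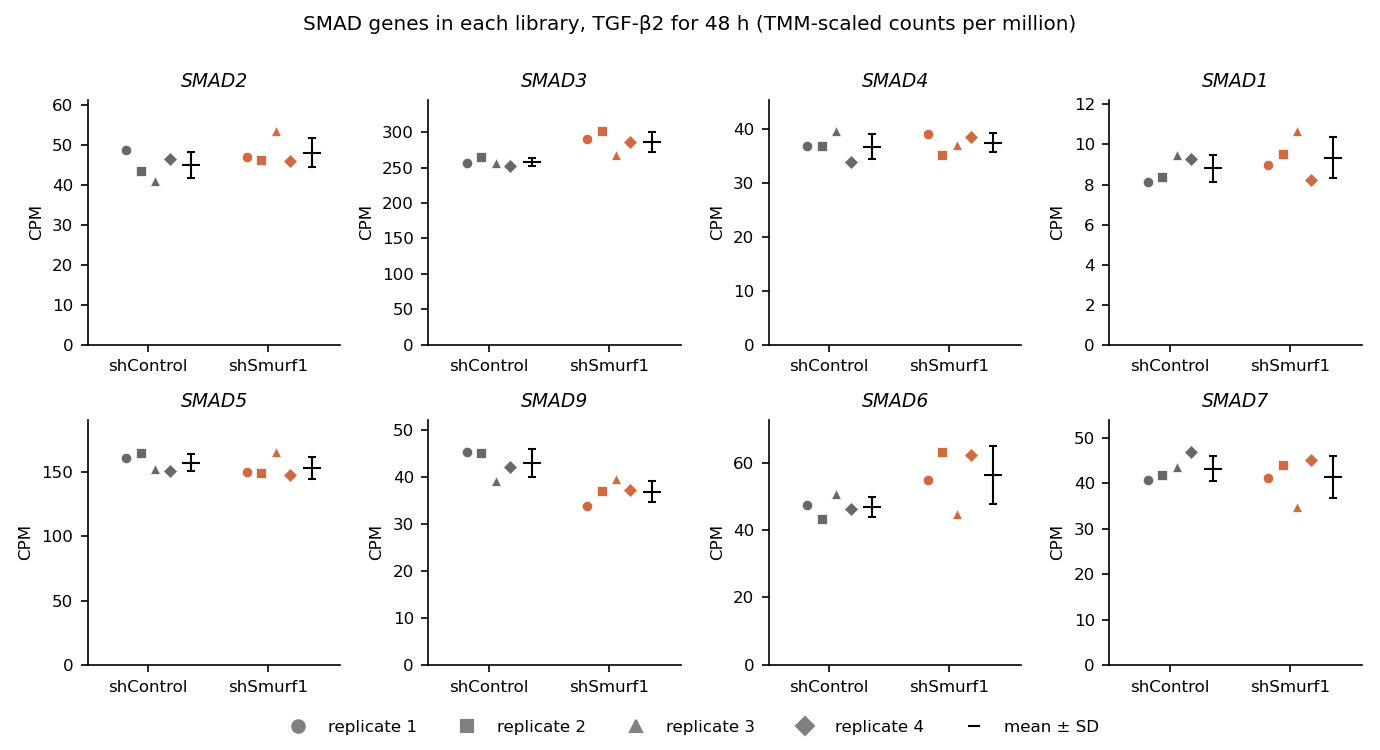
TMM-scaled CPM (vertical axes, from 0) of each SMAD gene in the 4 shControl (grey) and 4 shSmurf1 (orange) libraries, with the marker shape giving the replicate number and bars the mean ± SD. The shSmurf1 libraries of SMAD3 all lie above the controls, and replicate 3 (triangle) is the lowest shSmurf1 library for SMAD3, SMAD6 and SMAD7 and the highest for SMAD1, SMAD2, SMAD5 and SMAD9.

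SMAD3, the receptor SMAD of the TGF-β branch that binds DNA directly, was the member with the most counts. It lies on chromosome 15 (GRCh38, 67063763 to 67195195, plus strand). Its level was 257.1, 264.8, 256.0 and 252.2 CPM in shControl replicates 1 to 4, and 290.5, 300.9, 267.6 and 286.4 CPM in shSmurf1 replicates 1 to 4. All 4 knockdown libraries lay above all 4 controls, with replicate 3 nearest to them. The mean rose from 257.5 ± 5.28 to 286.4 ± 13.9 CPM (SD, n = 4 each), a log2 fold change of 0.15 ± 0.048 (edgeR adjusted p = 0.0264). Of all genes tested, 49.9% had a smaller change in size. Without shSmurf1 replicate 3 it was 0.19 (edgeR adjusted p = 0.000178). It also passed without shControl replicate 2 (edgeR adjusted p = 0.0483), and in the other 6 fits that left out 1 library the adjusted p ran from 0.0513 to 0.103. With each library's GC trend removed the change was 0.13 (edgeR adjusted p = 0.00989). With the trend removed and shSmurf1 replicate 3 left out together it was 0.15 (edgeR adjusted p = 0.00243).

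SMAD2, its partner in the TGF-β branch (chromosome 18, 47808957 to 47931146, minus strand), had 48.7, 43.6, 41.1 and 46.6 CPM in shControl and 46.9, 46.3, 53.4 and 45.9 CPM in shSmurf1. Only replicate 3 of the knockdown lay above the highest control. The log2 fold change was 0.10 ± 0.072 (edgeR adjusted p = 0.384), and 0.04 without that replicate. With each library's GC trend removed it was 0.15 and just missed the threshold (edgeR adjusted p = 0.0502). With the trend removed and that replicate left out together it was 0.14 (edgeR adjusted p = 0.0837).

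In the BMP branch, SMAD9 (chromosome 13, 36844831 to 36920765, minus strand), a receptor SMAD with weak activity on target genes, was the member that fell. It had 45.3, 45.02, 39.0 and 42.1 CPM in shControl and 33.8, 37.0, 39.4 and 37.2 CPM in shSmurf1. The groups met at 1 point, where shSmurf1 replicate 3 exceeded shControl replicate 3. The mean went from 42.9 ± 2.94 to 36.9 ± 2.31 CPM, 86.0% of control, and the log2 fold change was -0.22 ± 0.072 (edgeR adjusted p = 0.0351). Leaving out shSmurf1 replicate 3 gave -0.25 (edgeR adjusted p = 0.00441) and leaving out shControl replicate 3 gave -0.26 (edgeR adjusted p = 0.0229). With any other library left out the adjusted p ran from 0.0620 to 0.127. Removal of each library's GC trend gave -0.17 (edgeR adjusted p = 0.0403). With the trend removed and shSmurf1 replicate 3 left out together it was also -0.17 (edgeR adjusted p = 0.0492).

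SMAD5 (chromosome 5, 136132845 to 136188747, plus strand), the most abundant BMP-branch receptor SMAD, had 160.7, 164.7, 152.4 and 151.1 CPM in shControl. In shSmurf1 it had 150.3, 149.0, 165.8 and 147.5 CPM. Replicates 1, 2 and 4 of the knockdown lay below every control and replicate 3 above every one. The log2 fold change was -0.04 ± 0.053 (edgeR adjusted p = 0.666). It was -0.08 without replicate 3, and 0.025 once each library's GC trend was removed, so no direction is given. SMAD1 (chromosome 4, 145481194 to 145558079, plus strand), the closest relative of SMAD5, had the fewest counts, 124 to 162 per library. Its values overlapped widely, at 8.11 to 9.46 CPM in shControl and 8.22 to 10.7 CPM in shSmurf1, with a log2 fold change of 0.08 ± 0.12 (edgeR adjusted p = 0.671). Without shSmurf1 replicate 3 the change of SMAD1 was 0.02 (edgeR adjusted p = 0.937), and with the GC trend removed 0.12 (edgeR adjusted p = 0.502).

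SMAD4, the common partner of both branches (chromosome 18, 51028394 to 51085045, plus strand), ranged from 33.8 to 39.5 CPM in shControl and from 35.1 to 39.1 CPM in shSmurf1. The knockdown range lay inside the control range. Its log2 fold change of 0.03 ± 0.071 did not pass (edgeR adjusted p = 0.822).

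Among the inhibitory SMADs, SMAD6 (chromosome 15, 66702228 to 66782848, plus strand), which acts mainly on BMP signals, had the largest change of the family. It had 47.3, 43.4, 50.7 and 46.2 CPM in shControl and 54.9, 63.2, 44.8 and 62.3 CPM in shSmurf1. Replicates 1, 2 and 4 of the knockdown exceeded every control, and replicate 3 lay within the control range. The mean rose from 46.9 ± 3.01 to 56.3 ± 8.52 CPM, 120.1% of control, with a log2 fold change of 0.26 ± 0.089 (edgeR adjusted p = 0.0382). Without replicate 3 the change was 0.36 (edgeR adjusted p = 3.22e-05). It passed as well without shControl replicate 3 (0.30, edgeR adjusted p = 0.0428) and missed the threshold with any other library left out, where the adjusted p ran from 0.0633 to 0.150. After removal of each library's GC trend it was 0.18 (edgeR adjusted p = 0.0429), and limma-voom gave 0.25 and did not pass (adjusted p = 0.0541). With the trend removed and shSmurf1 replicate 3 left out together it was 0.24 (edgeR adjusted p = 0.00268), less than the 0.36 above.

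SMAD7 (chromosome 18, 48919853 to 48952052, minus strand), the inhibitory SMAD that carries SMURF ligases to the TGF-β receptor, had 40.8, 41.9, 43.5 and 47.0 CPM in shControl and 41.2, 44.1, 34.8 and 45.2 CPM in shSmurf1. Replicate 3 was again the low library, and the other knockdown libraries lay inside the control range. The log2 fold change was -0.07 ± 0.080 (edgeR adjusted p = 0.613). It was 0.01 without replicate 3 (edgeR adjusted p = 0.931) and -0.16 after removal of the GC trend (edgeR adjusted p = 0.0473). After removal of the trend and without replicate 3 together it was -0.13 (edgeR adjusted p = 0.116).

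**Figure D3:**
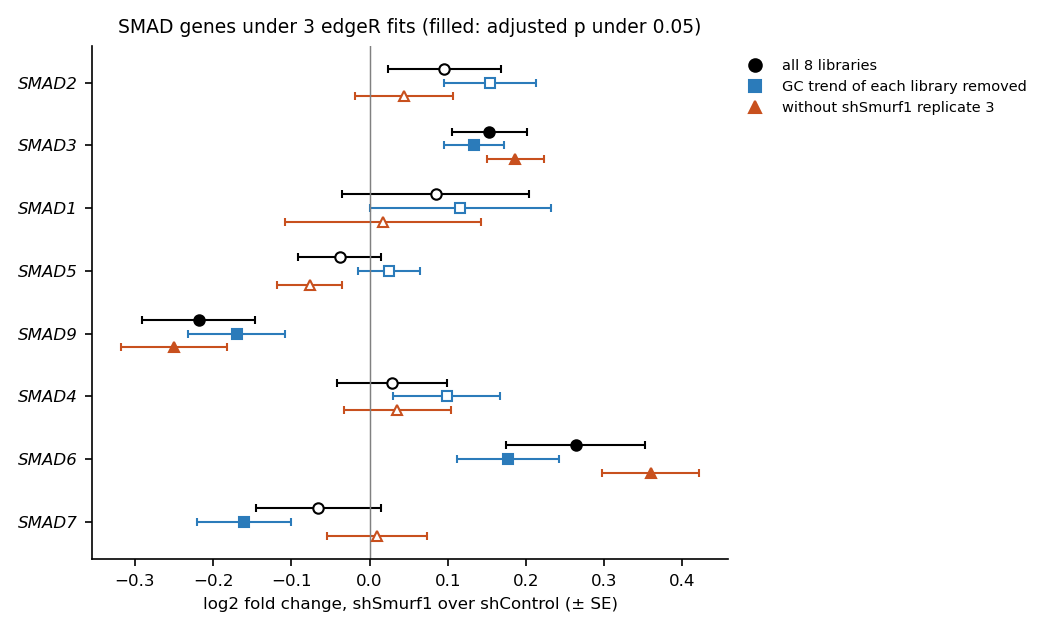
Log2 fold change of each SMAD gene, shSmurf1 over shControl (horizontal axis, bars ± SE), in edgeR fits of all 8 libraries (black circles), with each library's GC trend removed (blue squares) and without shSmurf1 replicate 3 (orange triangles); filled symbols have an adjusted p under 0.05. SMAD3, SMAD6 and SMAD9 are filled in all 3 fits, and SMAD7 only with the GC trend removed.

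Levels of different genes were compared per length, as TPM (transcripts-per-million, from counts over the union of each gene's exons). In shControl SMAD3 stood highest at 109.6 ± 3.23 TPM, followed by SMAD5 at 67.4 ± 2.69, SMAD7 at 33.4 ± 2.31, SMAD9 at 29.03 ± 1.64, SMAD6 at 21.2 ± 1.57, SMAD4 at 10.9 ± 0.831, SMAD1 at 5.64 ± 0.504 and SMAD2 at 4.79 ± 0.269 TPM (SD, n = 4). SMAD1 and SMAD2 overlapped between libraries, at 5.07 to 6.19 and 4.48 to 5.08 TPM. SMAD7 and SMAD9 nearly touched, with a lowest SMAD7 library of 30.68 TPM and a highest SMAD9 library of 30.66 TPM, and the remaining neighbours did not overlap. In shSmurf1 SMAD6 at 24.96 ± 4.28 TPM and SMAD9 at 24.4 ± 1.33 TPM (n = 4) overlapped.

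The order depended on the length used. A shorter length was next put in for the SMAD genes only, while all other genes kept their exon union and the counts stayed those of whole genes. The resulting values order the members among themselves and cannot be set against other genes. With the shortest transcript that holds the principal coding sequence, SMAD5 at 189.6 ± 7.56 TPM stood above SMAD3 at 159.8 ± 4.71 TPM in shControl (n = 4). In shSmurf1 both overlapped, at 180.2 ± 6.31 and 173.6 ± 12.5 TPM (n = 4). In shControl SMAD6 at 47.4 ± 3.50 TPM then lay above SMAD7 at 37.9 ± 2.62 TPM, and SMAD1 rose to 20.6 ± 1.84 TPM, above SMAD4 at 16.8 ± 1.28 and SMAD2 at 14.4 ± 0.810 TPM. SMAD2 has a union exon length of 36366 bases against 12075 for that transcript. Under both lengths SMAD3 and SMAD5 were the 2 members at the top and SMAD2 was the lowest. Of the summed SMAD TPM over exon unions, SMAD3 took 38.9% ± 0.361 in shControl and 41.7% ± 1.09 in shSmurf1 (n = 4 each). SMAD5 took 23.9% ± 0.685 and 22.5% ± 1.83, and SMAD9 took 10.3% ± 0.610 and 8.56% ± 0.660 (n = 4 each).

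**Figure D4:**
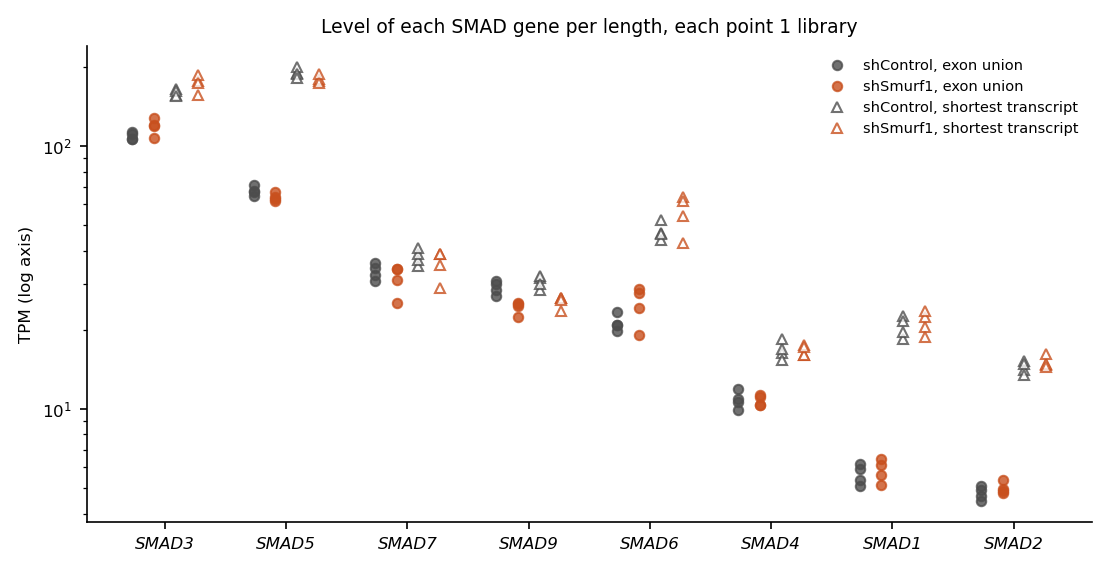
Level of each SMAD gene in TPM (vertical log axis), each point 1 library, with grey for shControl and orange for shSmurf1. Filled circles use the exon union as the length. Open triangles use the shortest transcript with the principal coding sequence, for the SMAD genes only. SMAD3 lies above SMAD5 with the union, whereas with the shorter length the shControl mean of SMAD5, at 189.6 TPM, exceeds that of SMAD3, at 159.8 TPM, and the shSmurf1 points of both genes overlap.

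The balance within the family was compared as 4 ratios of counts per kb of exon within a library, which do not depend on scaling. The exon union gave the lengths, and the level of each ratio depends on that choice, as the order of the members did. The ratio of SMAD6 to SMAD7, the inhibitors of the BMP and of both branches, was 0.682, 0.609, 0.684 and 0.578 in shControl replicates 1 to 4 and 0.782, 0.842, 0.756 and 0.811 in shSmurf1 replicates 1 to 4. The groups did not overlap, and replicate 3 lay with the other knockdown libraries, since both genes were low in it. The log2 difference was 0.32 (two-sided exact permutation test, p = 0.0286, the smallest that 4 against 4 libraries can give; Benjamini-Hochberg adjusted over the 4 ratios, p = 0.114). The difference stood in the same direction in 4 of 4 knockdown libraries and in each alternative tried, but does not pass after adjustment.

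The ratio of the BMP-branch to the TGF-β-branch receptor SMADs, (SMAD1 + SMAD5 + SMAD9) over (SMAD2 + SMAD3), was 0.915, 0.908, 0.864 and 0.885 in shControl and 0.724, 0.715, 0.876 and 0.739 in shSmurf1. Knockdown replicates 1, 2 and 4 lay below every control, and replicate 3 lay among the controls. The log2 difference was -0.23 (two-sided exact permutation test, p = 0.0571, adjusted p = 0.114). It was -0.30 without replicate 3 (exact p = 0.0571, the smallest that 4 against 3 can give) and -0.16 with the GC trend removed (exact p = 0.0286, adjusted p = 0.0571). With the shorter transcript length it was -0.20 (exact permutation p = 0.0857, adjusted p = 0.171). With raw counts it was -0.21 (exact permutation p = 0.0286, adjusted p = 0.0571).

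The SMAD3 to SMAD2 ratio was 22.9 ± 1.89 in shControl and 23.9 ± 2.65 in shSmurf1 (n = 4 each). Its log2 difference of 0.06 did not pass (exact permutation p = 0.686, adjusted p = 0.914) and was -0.02 with the GC trend removed. The inhibitory SMADs over the receptor SMADs came to 0.253 ± 0.0190 and 0.257 ± 0.0333 (n = 4 each), a log2 difference of 0.02 (exact permutation p = 0.914, adjusted p = 0.914). Its sign changed with the library left out, so neither ratio gives a direction.

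**Figure D5:**
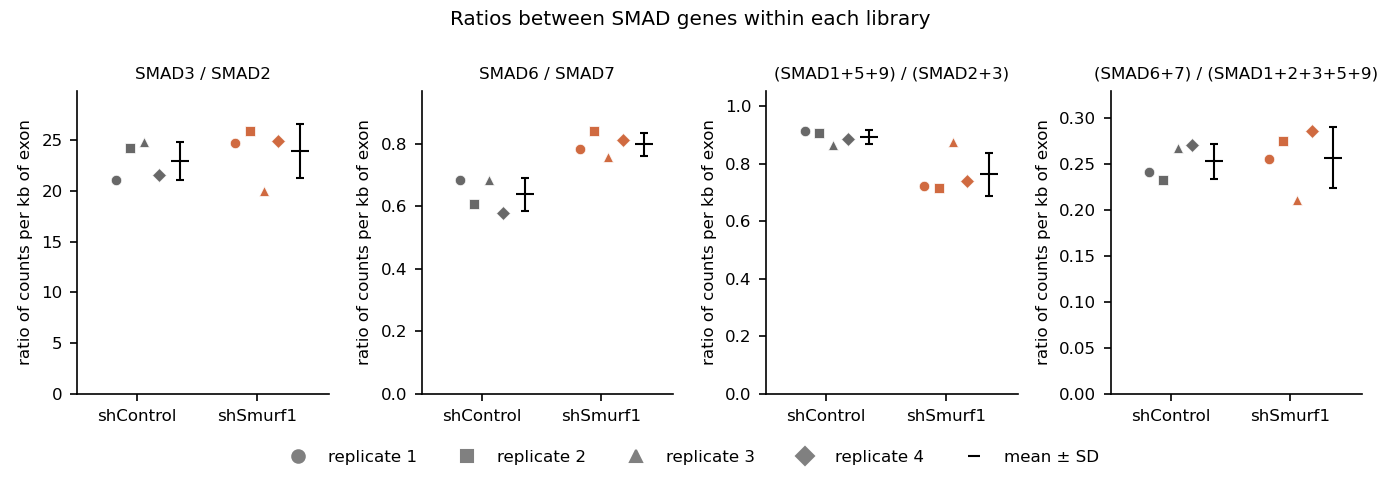
Ratios of counts per kb of exon between SMAD genes within each library (vertical axes, from 0), for shControl (grey) and shSmurf1 (orange), with marker shapes for replicate numbers and bars for the mean ± SD. The SMAD6 to SMAD7 ratio is the panel in which the 4 knockdown libraries, at 0.756 to 0.842, all lie above the controls, at 0.578 to 0.684.

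SMAD6 and SMAD3 are neighbours on chromosome 15 and rose together, so the genes around them were read as well. The 10 nearest tested protein-coding genes on each side, the same 20 genes for both, had a median log2 fold change of -0.04, with 1 higher and 3 lower. Such counts, here and around SMAD9, stand beside 10.3% higher and 12.2% lower among all genes tested. Within 5 genes on each side the median was 0.05. The rise of SMAD3 (0.15) and SMAD6 (0.26) was thus larger than the median of their surroundings under either width. Around SMAD9 the median was -0.05, with 4 genes higher and 2 lower, beside -0.22 for SMAD9 itself. Around the other members it ran from -0.06 to 0.05.

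The RefSeq promoter windows of the family, 19 windows of 300 bases on GRCh38.p14, were searched on both strands for 3 sequences known to bind SMAD proteins. The palindromic SMAD-binding element GTCTAGAC occurred in 1 of the 19, that of SMAD6, and in 71 of all 35116 windows (0.202%). It lies 12 bases before the start annotated in RefSeq. The start of SMAD6 in GENCODE release 29, 66702228, falls within the element. The 250 bases upstream of the RefSeq start, chr15:66701986-66702235 on the plus strand, are shown because SMAD6 had the largest change, with the element in capitals.
SMAD6 promoter: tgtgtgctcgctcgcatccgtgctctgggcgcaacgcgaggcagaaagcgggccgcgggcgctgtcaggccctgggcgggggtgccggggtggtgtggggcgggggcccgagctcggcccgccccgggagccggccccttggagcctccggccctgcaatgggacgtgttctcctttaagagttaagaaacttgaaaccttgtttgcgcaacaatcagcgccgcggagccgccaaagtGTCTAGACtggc
CAGACA occurred in 1 window, 1 of those of SMAD3, and in 16.9% of all windows. GGCGCC occurred in 7 windows, of SMAD1, SMAD2, SMAD3, SMAD4 and SMAD5, and in 19.2% of all windows. The SMAD6 window held neither of these, so no match overlapped the palindrome. These are matches of letters, and binding was not measured.

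Overlapping gene models touched 4 members in their exons, and the counting is not stated to use strand. The partners had few counts. How reads on shared bases were counted is not stated, so this does not show that a partner was silent. SMAD3 shares 182 exonic bases with the antisense gene AC087482.1, which had 31 counts over all libraries, SMAD5 shares 610 with SMAD5-AS1 (7 counts), SMAD1 shares 376 with SMAD1-AS1 (1 count) and SMAD4 shares 967 with AC091551.1 (0 counts). Whether reads from bases shared with the antisense genes were assigned by strand is not known, and AC091551.1 lies on the same strand as SMAD4. SMAD6, SMAD7 and SMAD9 share no exonic base with another gene, nor does SMAD2.

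Each well-expressed member was matched to the genes whose centred log2 CPM ran most like its own over the 8 libraries, by the root mean square difference among 8690 protein-coding genes. AP2A1 (0.025) and PBX2 (0.028) came nearest to SMAD3, where the median gene stood at 0.14. ADGRL1 (0.035) and ANKRD9 (0.045) came nearest to SMAD6, with a median of 0.23, and USP16 and MYL12A (both 0.038) to SMAD9, with a median of 0.17. AXIN1 (0.028), a scaffold of WNT signalling, and FKBP8 (0.035) were nearest to SMAD7. CCAR1 and KAT7 (both 0.019) were nearest to SMAD5, and TMEM63A and MDM1 (both 0.035) to SMAD4. These likenesses take in the shared course of shSmurf1 replicate 3 and describe 8 libraries only.

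Other genes of the pathway were read by role from 12 lists with 166 tested genes, SMAD members left out. Of these 19 rose and 41 fell, 36.1% beside 22.5% of all genes, with a median log2 fold change of -0.02. Without shSmurf1 replicate 3 the counts were 29 and 48, while those over all genes went from 1611 to 2601 higher and from 1916 to 2747 lower. The lists were drawn up with earlier results of these data known, so their counts are descriptions.

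Ligands and receptors were read beside the 10.3% of all genes tested that rose and the 12.2% that fell. Among TGF-β, activin and GDF ligands 2 of 7 rose and 1 fell, and 2 fell without shSmurf1 replicate 2, with limma-voom and with GC removal. GDF15, a stress-induced family member, rose from 57.1 ± 2.39 to 105.4 ± 25.8 CPM (n = 4 each; log2 fold change 0.89 ± 0.11, edgeR adjusted p = 9.80e-06). GDF11, a ligand of the SMAD2 and SMAD3 branch, rose by 0.36, and INHBA, the activin A subunit, fell by 0.28 on the log2 scale. Of 3 BMP ligands, BMP4 fell from 10.4 ± 1.36 to 5.21 ± 0.747 CPM (log2 fold change -0.996 ± 0.14, edgeR adjusted p = 3.57e-05) and 0 rose. Of 10 type I and type II receptors 0 rose and 4 fell, among them ACVR1B, an activin receptor, with -0.43, and TGFBR1, the type I TGF-β receptor that phosphorylates SMAD2 and SMAD3, with -0.23. The groups overlapped for neither. Without shSmurf1 replicate 3 the BMP ligand list had 1 gene higher in place of 0, as it did without shSmurf1 replicate 1 or shControl replicate 3.

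Anchors, phosphatases, kinases and transport factors, which hold, modify or move SMADs, were read next, beside the 22.5% of all genes that changed. Of 14 anchors and scaffolds 2 rose, HGS (0.23) and STRAP (0.16), a protein that stabilises SMAD7 at the receptor. For HGS shSmurf1 replicate 3, at 146.9 CPM, lay within the control range of 142.5 to 159.5 CPM. ZFYVE9, the anchor known as SARA that presents SMAD2 and SMAD3 to the receptor, fell with -0.28, and LEMD3, a nuclear membrane protein that binds receptor SMADs, with -0.20. These counts ranged from 0 to 4 higher and 1 to 5 lower as single libraries were left out, with the most calls without shSmurf1 replicate 3. Of 10 phosphatases 1 fell, PPM1A, which removes the phosphates from the terminal serines shown above, from 154.3 ± 3.44 to 116.6 ± 9.51 CPM (n = 4 each; log2 fold change -0.40 ± 0.057, edgeR adjusted p = 3.47e-05). Of 12 linker and other kinases ROCK1 fell (-0.17), a call lost in 6 of 8 fits without 1 library. Of 11 import and export genes RANBP3, an exporter of SMAD2 and SMAD3, rose (0.14) and KPNB1, importin-β1, fell (-0.13), but the count of higher genes was 0 in 7 and that of lower genes 0 in 6 of 8 fits without 1 library, and both were 0 with no filter on low counts.

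Nuclear partners of the SMADs included strong falls. Their counts stand beside the 10.3% of all genes tested that rose and the 12.2% that fell. Of 23 coactivators and DNA-binding partners 2 rose and 7 fell, against 4 and 11 with the GC trend removed, and 1 rose without shControl replicate 1. FOXO1, a forkhead partner of SMAD3 and SMAD4, fell from 13.5 ± 1.20 to 6.80 ± 1.42 CPM (n = 4 each; log2 fold change -0.99 ± 0.14, edgeR adjusted p = 2.22e-05), and HIPK2, a nuclear kinase, fell with -0.63, whereas FOXO4 (0.28) and YY1 (0.19) rose. Of 14 co-repressors TOB1 rose (0.22), and MECOM, which binds SMAD3, and ZEB1 fell with -0.84 and -0.23. The co-repressor counts ranged from 0 to 3 higher and 1 to 3 lower as single libraries were left out, with 3 higher without shSmurf1 replicate 3. Of 23 ubiquitin ligases and deubiquitinases 0 rose and 7 fell, the targeted SMURF1 among them. Without shSmurf1 replicate 3, with DESeq2 and with GC removal 1 of them was higher. NEDD4L, a related ligase that recognises phosphorylated SMAD2 and SMAD3, fell with -0.41 (edgeR adjusted p = 5.19e-05).

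Target genes of the SMADs moved in both directions. Of 27 known SMAD2 and SMAD3 targets 8 rose and 9 fell, 63.0% beside 22.5% of all genes tested (10.3% higher and 12.2% lower). COL3A1 rose from 16.5 ± 0.916 to 40.8 ± 2.26 CPM (n = 4 each; log2 fold change 1.30 ± 0.077, edgeR adjusted p = 4.01e-10), and RHOB rose by 0.78. COL1A2, the partner chain of type I collagen, fell from 243.8 ± 8.27 to 121.2 ± 4.86 CPM (n = 4 each; log2 fold change -1.01 ± 0.050, edgeR adjusted p = 3.36e-11), and TSPAN2 fell with -1.10. Of 15 SMAD1 and SMAD5 targets 3 rose and 6 fell. ID1, a helix-loop-helix inhibitor and direct BMP target, rose from 377.8 ± 12.3 to 442.4 ± 30.2 CPM (n = 4 each; log2 fold change 0.23 ± 0.052, edgeR adjusted p = 0.00309), and TCF7 rose by 0.30. NOG, a secreted BMP antagonist, fell with -0.91 and BAMBI, a decoy receptor, with -0.73. Some genes named from the lists or as most like a member share exonic bases with a tested gene on the other strand. They are HGS, ZFYVE9, TOB1, ZEB1, SMURF1, TCF7, AP2A1, TMEM63A, KAT7, ADGRL1 and ANKRD9. As the strand setting is not given, their reads may not be fully told apart from that gene.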

How the data were processed

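The deposited table holds raw read counts per gene, whole numbers without normalization, 1 column per library. The submitters' processing notes list HISAT2 2.0.5, featureCounts 1.5.0-p3, fastp and CASAVA. Build, annotation and strand setting: not given in the sources used here. Per the labels' protocols, polyadenylated RNA was selected and cDNA primed with random hexamers. All 58735 identifiers matched GENCODE release 29, which gave symbols, coordinates, exon lengths, GC content and coding sequences, and promoters came from RefSeq (GRCh38.p14).

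The labels speak of biological replicates without saying that cultures were separate, so the p-values measure only spread between libraries. Members, lists, rules and tests were chosen with earlier results of these data known. After filterByExpr (minimum count 10, 15647 genes) and TMM scaling, shSmurf1 was compared with shControl in R 4.3.3 by the two-sided quasi-likelihood F test of edgeR 4.0.16, without covariates. An SE is the log2 fold change over the square root of F. Adjustment was Benjamini-Hochberg over all genes tested, and a gene is said to have risen or fallen at an adjusted p under 0.05. Ratios were tested by exact permutation (scipy 1.17.1). In simulated counts for this comparison (15423 genes), 50 genes were planted per size. The test recovered 48% of them at 1.25-fold, 72% for 1.5-fold, 92% for 2-fold and 100% for 4-fold changes, with 13 other calls. Far fewer genes were changed there than passed in the data, so these percentages do not give the power for single members.

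Named genes were the members, SMURF1, the 2 genes most like each member of at least 10 TPM in shControl, and for each list up to 2 changed genes with the largest change in each direction at an average log2 CPM of at least 2. Alternatives were DESeq2 (1.42.0) and its size factors, library totals, limma-voom (limma 3.58.1), no filter, a filter that asked for 1 CPM or more in 4 libraries, a block for the replicate number, removal of each library's GC trend (loess, span 0.3) with and without the block, omission of mitochondrially encoded genes, and leaving out each library. GC removal without shSmurf1 replicate 3, and the shorter transcript length, were added after seeing the data.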

Additional observations from a re-analysis of the deposited data

Results flagged for a closer look

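In shSmurf1 replicate 3 SMAD2 stood at 53.4 CPM, set apart from the other 3 knockdown libraries by 0.867 of the group's range, above the critical value of Dixon's test for 4 values. In the same library SMAD5 stood at 165.8 CPM, with 0.849 of the range. The ratio of BMP-branch to TGF-β-branch receptor SMADs was 0.876 there, also with 0.849 of the range. Chance marks about 1 in 20 groups in this way, and the 3 values come from 1 library and share SMAD2 and SMAD5. The GC content of the genes moved with the differences of this library, as given above; its part in them was not tested further.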

How the results depend on the processing

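Of 8 members, 2 were higher and 1 lower. The higher count was 1 with limma-voom, with the replicate block and with the block and GC removal together, and 0 to 2 as single libraries were left out. The lower count was 0 with library totals, 0 with the replicate block, 2 with GC removal, and 0 to 1 as single libraries were left out. SMAD3 passed in all 11 settings other than the plain omission of 1 library (0.13 to 0.18, edgeR, DESeq2 or limma adjusted p 0.00243 to 0.0460). The lowest of these came from GC removal without shSmurf1 replicate 3, added after seeing the data. With all 8 libraries the lowest was edgeR adjusted p = 0.00989, with GC removal. SMAD3 ran from 0.13 to 0.19 over single libraries left out. SMAD6 missed the threshold with limma-voom (0.25, adjusted p = 0.0541), with the replicate block (0.25, edgeR adjusted p = 0.0639) and with the block and GC removal (0.17, edgeR adjusted p = 0.0588), and ran from 0.20 to 0.36 over single libraries left out. SMAD9 missed it with library totals (-0.20, edgeR adjusted p = 0.0525), the replicate block (-0.22, edgeR adjusted p = 0.0632) and the block with GC removal (-0.17, edgeR adjusted p = 0.0505), and ran from -0.26 to -0.18. SMAD7 passed as lower with GC removal (-0.16) and with the block added (-0.16, edgeR adjusted p = 0.0430), and ran from -0.11 to 0.0096 over single libraries left out. SMAD5 changed sign with GC removal (0.025), with the block added (0.026) and with shSmurf1 replicate 3 left out as well (0.030). SMAD4 ran from -0.011 to 0.065 over single libraries left out. SMAD2 passed in no setting, but came near the threshold with GC removal (0.15, edgeR adjusted p = 0.0502) and with the block added (0.16, edgeR adjusted p = 0.0540). The SMAD3 to SMAD2 ratio turned to -0.023 with GC removal. The inhibitory ratio turned to -0.088 with it, and ran from -0.039 to 0.11 over single libraries left out. Among all genes tested, 1216 to 2601 were higher and 1547 to 2747 lower as single libraries were left out, the most without shSmurf1 replicate 3, and 14 to 29 of the listed genes were higher. The causes were not tested.

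Same-numbered libraries had correlations of their deviations of 0.05, -0.01, -0.18 and 0.06. Those of differently numbered libraries ran from -0.16 to 0.17. Whether same-numbered libraries were handled as pairs cannot be settled from these values, which are deviations from means of 4 libraries and include shSmurf1 replicate 3. The replicate block gave 1418 genes higher and 1774 lower. In the paired sign permutation the SMAD6 to SMAD7 ratio kept its difference (exact p = 0.125, the smallest that 4 pairs can give). With 124 to 162 counts per library SMAD1 has the widest error of the family. The changes of SMAD3, SMAD6 and SMAD9 were below the smallest planted size, of which the test recovered 48% in simulated counts. Only 50 genes of low and high level were planted per size, whereas 22.5% of genes passed in the data. The 48% therefore does not give the power for these members.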
